A study of Arabidopsis thaliana with 12 samples.

Results

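AK073675 is a rice full-length cDNA clone, and the line described here is Arabidopsis thaliana transformed with it. RNA from the aerial parts of these transformants was set against RNA from wild-type Col-0 plants on 2 replicate two-colour Agilent arrays, out of 12 arrays in the series. The 2 arrays were chosen by their titles and sample sources, which name AK073675, although their description field repeats the clone name AK069096. The other 10 arrays compare 5 further transformant lines (AK069096, AK073112, AK065297, AK102323 and AK073210, 2 arrays each) with Col-0. Transformants and wild type were kept alike, at 22 °C in long days of 16 h light and 8 h dark. What the AK073675 cDNA encodes, the promoter in front of it, the number of independent transformants in an RNA sample and the age of the plants are given in none of the sources used here. It is also unstated whether the 2 arrays come from separate plants, so a p-value here reflects array-to-array spread, which may be technical.

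Every value below is the deposited log ratio of a probe, put on the log2 scale on the reading that the table holds log10 ratios. A positive value lies on one side of the ratio between transformant and Col-0 and a negative value on the other. Which side means more transcript in AK073675 is not settled. Cy3 marks the transformant and Cy5 the wild type on all 12 arrays, and no array swaps the dyes, so a dye effect stays in each comparison with Col-0. The order of words in the titles puts the transformant on top of the ratio, and the scanner program's usual order of dyes puts Col-0 on top. Channel intensities were not analysed here, so no absolute transcript level and no depth can be read, and the number of arrays limits the precision.

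Some of the genes below belong to pathways with a known course. Anthocyanins, the red and purple pigments of stressed or brightly lit shoots, are made from flavonoids: dihydroflavonol reductase (DFR) makes the leucoanthocyanidin precursor, and glycosyltransferases and acyltransferases decorate the coloured core. Chlorophyll is the end of the tetrapyrrole pathway, which runs through aminolevulinate and porphyrins to protochlorophyllide. In anthers, the tapetum is the nurse tissue that feeds developing pollen and coats its wall, and it vanishes as pollen ripens. Aerial parts of a flowering plant hold leaf, stem and flower, and in such bulk RNA fewer cells of a type cannot be told apart from less RNA per cell.

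Among genes with a symbol, the anthocyanin xylosyltransferase UF3GT and the beta-glucosidase BGLU46 lay farthest on the positive side in AK073675. The methionine sulfoxide reductase MSRB6, the triterpene synthase LUP5 and the alpha-amylase AMY1 lay farthest on the negative side. Of 21494 probes, 1235 (5.75%) differed from a log2 ratio of 0 at an adjusted p below 0.05 in limma's moderated test, which shares the spread between replicates over all 6 lines. These were 590 positive probes (2.74%) and 645 negative probes (3.0%). Both AK073675 arrays lay on one side for all 1235, which is no measure of agreement. A gap between the 2 arrays that crosses 0 enters the spread, so no such probe could pass in this fit. A mean of at least 1 in size, a ratio of at least 2-fold, was reached by 311 of the 1235 (1.45% of all probes), 135 positive and 176 negative. The unadjusted p was below 0.05 for 5087 probes. Leaving out either array of another line gives the same fit against Col-0, because the array left alone adds nothing to the spread. The 12 fits that leave out 1 array are therefore not 12 separate checks. The count of 1235 changed when any 1 of the 12 arrays was left out. It was 20 without AK073675 replicate 1 and 654 without AK073675 replicate 2, between 511 and 775 without any 1 array of AK069096, AK065297, AK102323 or AK073210, and 4053 without either AK073112 array.

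The 1235 probes fall into 3 classes of annotation with like shares past the threshold. Probes of genes with a symbol passed in 79 of 1315 cases (6.01%), 32 positive and 47 negative. Probes of genes known by a locus code alone passed in 454 of 8017 cases (5.66%), 252 positive and 202 negative. Probes listed with no gene or with several passed in 702 of 12162 cases (5.77%), and these cannot be named. They include the probes with the most extreme replicated values in the line. Probe 13520 read -3.75 and -3.95 on the 2 AK073675 arrays, against a mean of -0.81 over the other 5 lines. Probe 9130 read 3.29 and 3.52 in AK073675 and averaged 3.79 in the other lines, and probe 11533 read 3.36 and 3.03 in AK073675 and averaged 1.14 in the other lines.

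The 2 AK073675 arrays were moderately alike. Across the 21494 probes their ratios correlated with Pearson's r of 0.586 and Spearman's rho of 0.570. This is a description across probes, which are not independent replicates. Both arrays have the Col-0 reference, the dye order and the array design in common, and perhaps the same Col-0 RNA. The same r was 0.805 for AK069096, 0.352 for AK073112, 0.641 for AK065297, 0.644 for AK102323 and 0.647 for AK073210. Of the 19480 probes that were not exactly 0 on either AK073675 array, 71.2% had both values on the same side. Replicate 1 was the more widely spread array, with an SD over probes of 0.48, against 0.40 on replicate 2, and the SD of the difference between the arrays was 0.41. A ratio of at least 1 in size was read on replicate 1 for 989 probes and on replicate 2 for 713. Both arrays reached it on the same side for 316 probes and on opposite sides for 5.

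**Figure D1:**
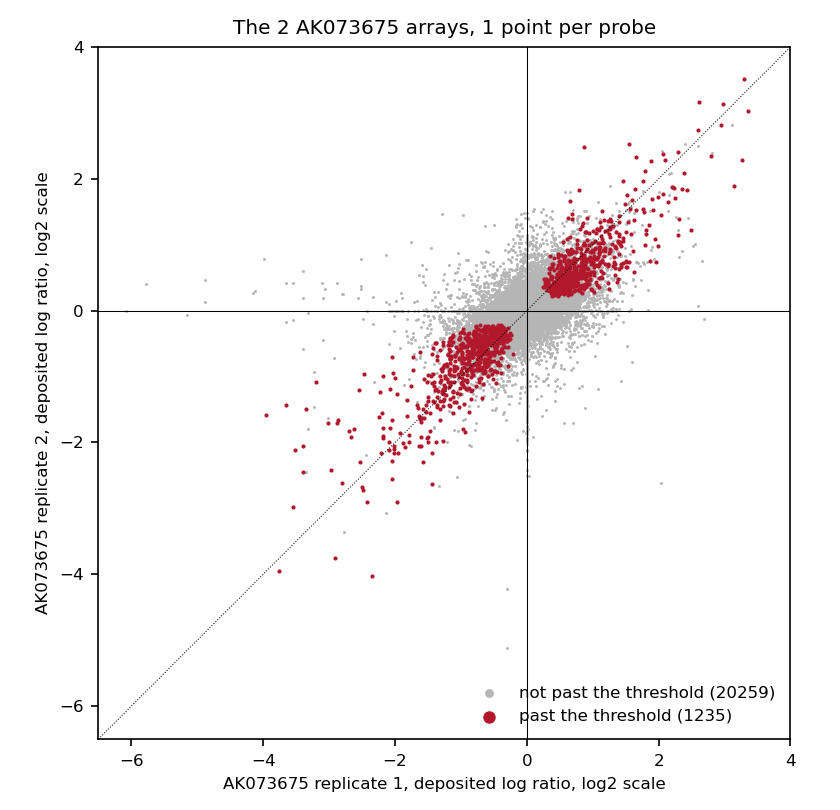
Deposited log ratio, log2 scale, of each of 21494 probes on AK073675 replicate 1 (horizontal axis) and replicate 2 (vertical axis). Red points are the 1235 probes past the threshold, and the dotted line marks equal values. The red points lie along the diagonal, while a row of grey points runs to the left near 0 on replicate 2, down to -6.08 on replicate 1.

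Agreement between the arrays differed by side where probes were chosen on replicate 1, and less so where they were chosen on replicate 2. The 100 most positive probes of replicate 1 had a median of 1.44 on replicate 2, where 96 of them were positive and 66 reached 1. Over all probes, 47.5% were positive on replicate 2 and 1.45% reached 1. The 100 most negative probes of replicate 1 had a median of -1.01 on replicate 2, with 68 negative, 50 at or below -1 and 25 positive. Read the other way, the 100 most positive probes of replicate 2 had a median of 1.58 on replicate 1, with 93 positive, 69 at 1 or more and 6 negative. Its 100 most negative probes had a median of -1.49 there, with 73 negative, 62 at or below -1 and 6 positive. The rest of these probes were exactly 0 on replicate 1. Where the mean of the 2 arrays was under 0.25 in size, 49.5% of 13687 probes had both arrays on the same side. That share rises with the size of the mean in part by construction, since values on opposite sides pull their mean toward 0. It was 90.1% for means of 0.25 to 0.5, 93.8% for means of 1 to 2 and 96.2% for the 78 probes at 2 or more. Of those 78 probes, 55 passed the threshold.

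The first 3 genes with a symbol on the positive side encode a glycosyltransferase, a beta-glucosidase and another glycosyltransferase. Each SE below is limma's moderated one, from the spread shared over all 6 lines and not from the 2 AK073675 arrays alone. UF3GT, which adds xylose to the glucose of anthocyanins, read 2.95 and 2.82 on the 2 AK073675 arrays. Its mean was 2.88 ± 0.52 (SE, n = 2 arrays, adjusted p = 0.0252), a 7.38-fold ratio. The 10 arrays of the other lines read 2.53 to 5.71 for it, so the AK073675 values lie inside their range. BGLU46, a beta-glucosidase that releases lignin precursors from their glucosides, read 2.31 and 1.40 in AK073675, with a mean of 1.85 ± 0.29 (SE, n = 2 arrays, adjusted p = 0.0179). In the other lines it ran between -1.06 and 1.29, and both AK073675 arrays lay above all 10 of those values. The glycosyltransferases UGT71C3 and UGT73B5 had means of 1.29 ± 0.19 and 0.81 ± 0.10 (SE). For both, the 2 AK073675 arrays lay within the range of the other lines.

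HIS1-3, a linker histone known to be induced by drought, gave the most even pair of values among the leading positive genes, 1.04 and 1.05 on the 2 AK073675 arrays (mean 1.04 ± 0.10, adjusted p = 0.0076). HYH, a bZIP transcription factor closely related to HY5 and active in light signalling, read 1.15 and 0.92 (mean 1.04 ± 0.18, adjusted p = 0.0245). Both genes were positive on all 10 arrays of the other lines too, between 0.54 and 2.12 for HIS1-3 and between 0.64 and 1.89 for HYH. AER, an alkenal reductase that acts on reactive carbonyls, read 1.15 and 0.57, so its size rests more on replicate 1. CaS, the thylakoid calcium-sensing protein, read 0.86 and 0.85, and FY, an RNA 3' end processing factor of the flowering-time pathway, read 0.61 and 0.91. CTF2B closes the 10 highest genes with a symbol, with 0.93 and 0.57.

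Below these, the positive genes with a symbol had means between 0.32 and 0.75. They include MGL, a methionine gamma-lyase, at 0.75, the MADS-box factor gene AGL62, known for its part in endosperm, at 0.63, and SPT (SPATULA), a bHLH factor of carpel development, at 0.60. STZ, a zinc finger repressor of salt and oxidative stress responses, stood at 0.59, and CYTC-2, a cytochrome c of mitochondria, at 0.61. The monodehydroascorbate reductase ATMDAR2, at 0.50, and the glutathione reductase GR1, at 0.45, recycle the antioxidants ascorbate and glutathione. All of these had both arrays on the positive side, which the test requires of a positive call.

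The negative side was led by MSRB6, which repairs oxidised methionine in proteins. It read -2.42 and -2.91 on the 2 AK073675 arrays (mean -2.66 ± 0.59, SE, n = 2 arrays, adjusted p = 0.0442), a 6.34-fold ratio. The other lines ran from -4.05 to -0.90, so its AK073675 values lie inside their range. LUP5, of the family that cyclises squalene epoxide to triterpenes, read -2.25 and -1.62 (mean -1.93 ± 0.40, adjusted p = 0.038). Its values in the other lines spread over both sides, from -2.60 to 0.64.

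AMY1, an alpha-amylase that cuts starch chains, read -1.44 and -2.16 on the 2 AK073675 arrays (mean -1.80 ± 0.17, SE, n = 2 arrays, adjusted p = 0.0076). Both values lay below all 10 arrays of the other lines, which ran from -1.29 to 1.34 with a median of 0.14. The lowest line mean among the others was -1.27, for AK065297, and the highest was 1.29, for AK069096. Of the 79 calls with a symbol, AMY1 was the 1 that stayed past the threshold in each of the 12 fits that leave out 1 array, with adjusted p between 0.00364 and 0.0246. Without AK073675 replicate 1 it was the 1 call left of the 79, and without AK073675 replicate 2 there were 28. Of the 43 genes in the starch and sucrose list, 3 were measured, so most of that pathway cannot be read here. The 2 measured beside AMY1 stood near 0. They are the disproportionating enzyme DPE1, at -0.15, and F2KP, which sets fructose 2,6-bisphosphate, at -0.02.

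Further genes of the negative side read nearly the same on both arrays. SAL2, a relative of the phosphatase SAL1, read -1.56 and -1.63, and CYP79A2, which turns phenylalanine into its aldoxime on the way to benzylglucosinolate, read -1.52 and -1.54. COR15B, a cold-induced protein that protects chloroplast membranes, read -1.27 and -1.19, and the endoglucanase GH9C3 read -1.18 and -1.43. SQN (SQUINT), the cyclophilin that supports small RNA function in shoot maturation, read -2.08 and -1.19, and GLC read -1.73 and -0.90, so both were farther from 0 on replicate 1. VGDH1, a pectin methylesterase of the VANGUARD1 family that acts in pollen tubes, read -1.21 and -1.03. In the other lines VGDH1 ran from -1.22 to 3.07, with the highest line mean, 2.74, in AK073210.

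**Figure D2:**
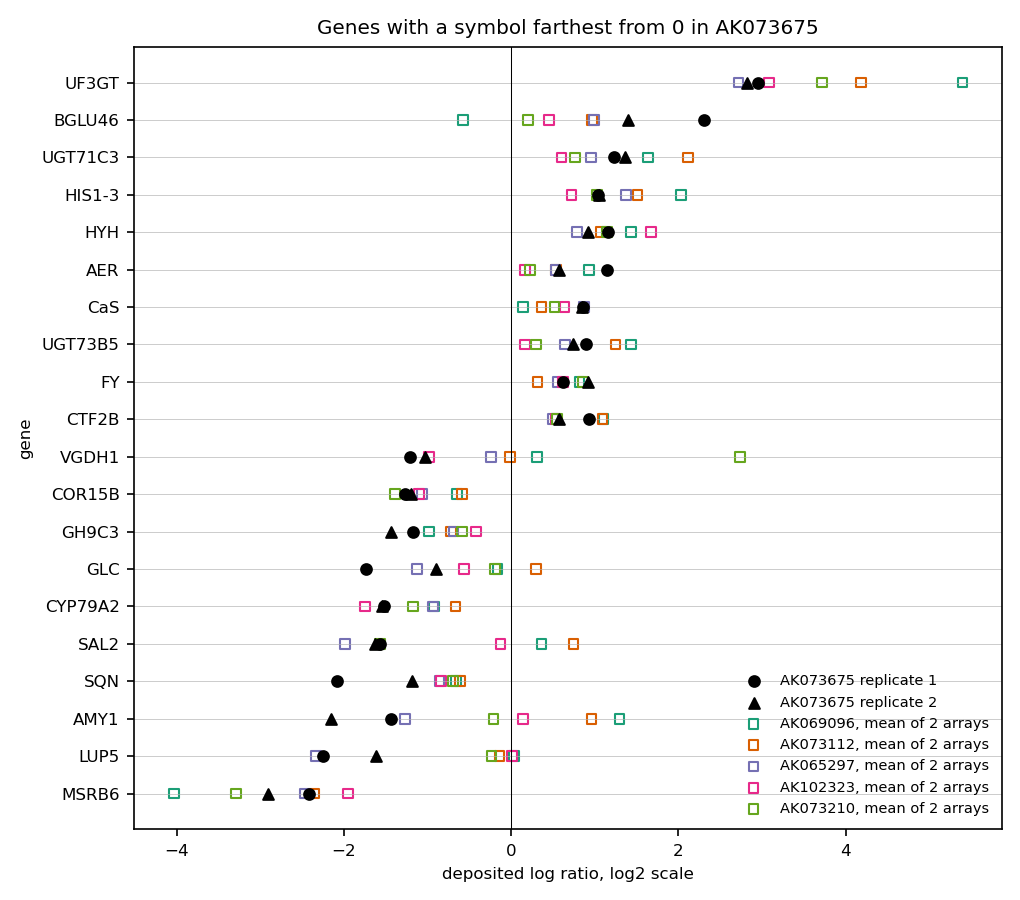
Deposited log ratio, log2 scale, of the 10 highest and 10 lowest genes with a symbol past the threshold in AK073675. Filled points are its 2 arrays and open squares the means of the 2 arrays of each other line. UF3GT, HIS1-3 and MSRB6 lie among the other lines, while both AMY1 points, -1.44 and -2.16, lie to the left of every other line's mean.

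Negative means of smaller size were read evenly for some genes and unevenly for others. PMEAMT, which methylates phosphoethanolamine on the way to phosphatidylcholine, read -1.10 and -0.89 (mean -0.99 ± 0.10, adjusted p = 0.00767). BCAT4, the aminotransferase that starts methionine chain elongation for glucosinolates, had a mean of -0.85, and UGT74B1, which glucosylates the thiohydroximate of the same pathway, one of -0.76. SIR, the sulfite reductase of sulfur assimilation, stood at -0.64 and was unevenly read, at -0.95 and -0.34. TMT1, a sugar importer of the vacuole, stood at -0.75, NdhS, a subunit of the chloroplast NADH dehydrogenase-like complex, at -0.63, and CHL, the chloroplast lipocalin, at -0.65. WRKY53, a transcription factor of leaf senescence, read -0.73 and -1.04.

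Gene lists were read as counts beside the 5.75% of all probes past the threshold. The 30 lists hold 373 of the tested probes, and 27 of those passed, which is close to that share. In 20 lists at least 1 probe passed, and in 10 lists none did. Every list was measured in part only, so the counts below cover its measured genes and not the whole family or pathway. The median log2 ratio of all probes was 0. Over all probes, 44.4% were negative on replicate 1 and 44.8% on replicate 2.

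The flavonoid and anthocyanin list had the highest median, 1.24 over 10 probes of 9 genes (of 26 in the list), against 1.87 for the same probes in the other 5 lines. The threshold was passed by 1 of the 10 probes, that of UF3GT. The other leading members had pairs of like size and missed the threshold. AT1G03940 read 3.11 and 2.82 (adjusted p = 0.0797), DFR read 2.40 and 2.53 (adjusted p = 0.0606), and the malonyltransferase gene AT5MAT read 2.05 and 2.43 (adjusted p = 0.077). For DFR the mean was 2.46 in AK073675 and 3.92 in the other lines. The flavonoid glucosyltransferase UGT78D2 read 1.22 and 1.31. AT4G14090 has 2 probes that disagree, with means of 1.22 and -0.03. CHIL, the chalcone isomerase-like protein (0.16), the flavonol rhamnosyltransferase UGT78D1 (-0.13) and BAN, the anthocyanidin reductase of seed coats (-0.43), stood near or below 0.

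All 8 measured genes of tetrapyrrole and chlorophyll synthesis (of 26) read negative on both AK073675 arrays, with a median of -0.53, against -0.70 in the other lines, and none of the 8 passed the threshold. PORB, which reduces protochlorophyllide in light, read -1.02 and -0.70 (adjusted p = 0.0664). The methyltransferase CHLM read -1.11 and -0.47 (adjusted p = 0.0807), the uroporphyrinogen decarboxylase HEME1 read -0.89 and -0.45 (adjusted p = 0.0941), and HEMB1, which joins aminolevulinate into porphobilinogen, read -0.71 and -0.47 (adjusted p = 0.0534). At the low end were CHLI2 at -0.36, GSA1 at -0.18 and HEMA2 at -0.12. Among 8 photosystem and antenna genes (of 63), 6 read negative on both arrays, with a list median of -0.29, against -0.60 in the other lines. The sole call was on the other side: LHCB4.3, an isoform of the CP29 antenna protein, read 0.52 and 0.63 (adjusted p = 0.0287). Its sister genes LHCB4.1 and LHCB4.2 stood at -0.27 and -0.37 and did not pass.

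Of the 7 cold response genes measured (of 16), COR15B and AT4G33980 passed, both on the negative side. AT4G33980, which is also in the clock list, read -1.28 and -1.38 in AK073675 and averaged -2.01 in the other lines. COR15A, the tandem relative of COR15B, lay on the other side with 0.50 and 0.95 (adjusted p = 0.0776). Probe sequences were not used here, and cross-hybridisation between such relatives was not tested. GI, the clock protein GIGANTEA, read -0.61 and -0.24, and KIN1 and KIN2 stood at 0.01 and 0.11.

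Of 10 tubulin genes (of 15), the building blocks of microtubules, 9 read negative on both arrays, with a median of -0.25, against -0.16 in the other lines. TUB5 (mean -0.81 ± 0.14, adjusted p = 0.022) and TUA5 (-0.51 ± 0.08, adjusted p = 0.019) passed. TUB1 read -0.67 and -0.74 and missed the threshold (adjusted p = 0.0605), and TUA3, whose protein is the same as that of TUA5, stood at -0.24. Of 46 UDP-glycosyltransferase genes, 5 passed: UF3GT, UGT71C3 and UGT73B5 on the positive side, UGT74B1 and UGT88A1 on the negative side. Of 18 cytochromes P450 measured (of 226), most of them CYP71B members, 3 passed, all negative: CYP79A2, CYP71B23 at -0.75 and CYP71B24 at -0.64. Of 13 glutathione S-transferase genes, GSTU20 (-0.89 ± 0.14) and GSTU26 (-0.61 ± 0.14) passed, while GSTU15, with 2.26 and 1.42, lay just outside (adjusted p = 0.0522).

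The beta-glucosidases split, with BGLU46 positive and BGLU44, which acts on mannosides, at -0.68, and 14 of 16 not past the threshold. Among 7 histone genes HIS1-3 was the single call, and HTR12, the centromeric histone H3, read -1.26 and -0.41 (adjusted p = 0.0608). Of 10 heat shock and chaperonin genes, ATERDJ2B passed at -0.67, and BIP1, the main chaperone of the endoplasmic reticulum, read -0.46 and -0.28. Of 11 SWEET sugar transporter genes, SWEET11, which exports sucrose from leaf phloem parenchyma, passed with -0.64 and -0.61. SWEET13, with 1.30 and 1.45, did not pass (adjusted p = 0.151). Single calls were made among 10 WRKY genes (WRKY53), 14 bZIP genes (HYH), 36 MADS-box probes (AGL62), 14 ubiquitin-conjugating enzyme genes (UBC18, 0.39), 14 GH9 endoglucanase genes (GH9C3) and 11 methionine sulfoxide reductase and glutaredoxin genes (MSRB6). HYH is also the one measured gene of the light signalling list. No probe passed among 24 expansin and xyloglucan enzyme genes, 22 SCPL genes, 17 trichome birefringence-like genes, 13 PUB and ATL ubiquitin ligase genes, 11 auxin genes, 8 autophagy genes, 7 bHLH genes, 4 late embryogenesis abundant genes or 3 thionin and defensin genes, and the medians of these lists ran from -0.47 to 0.14.

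**Figure D3:**
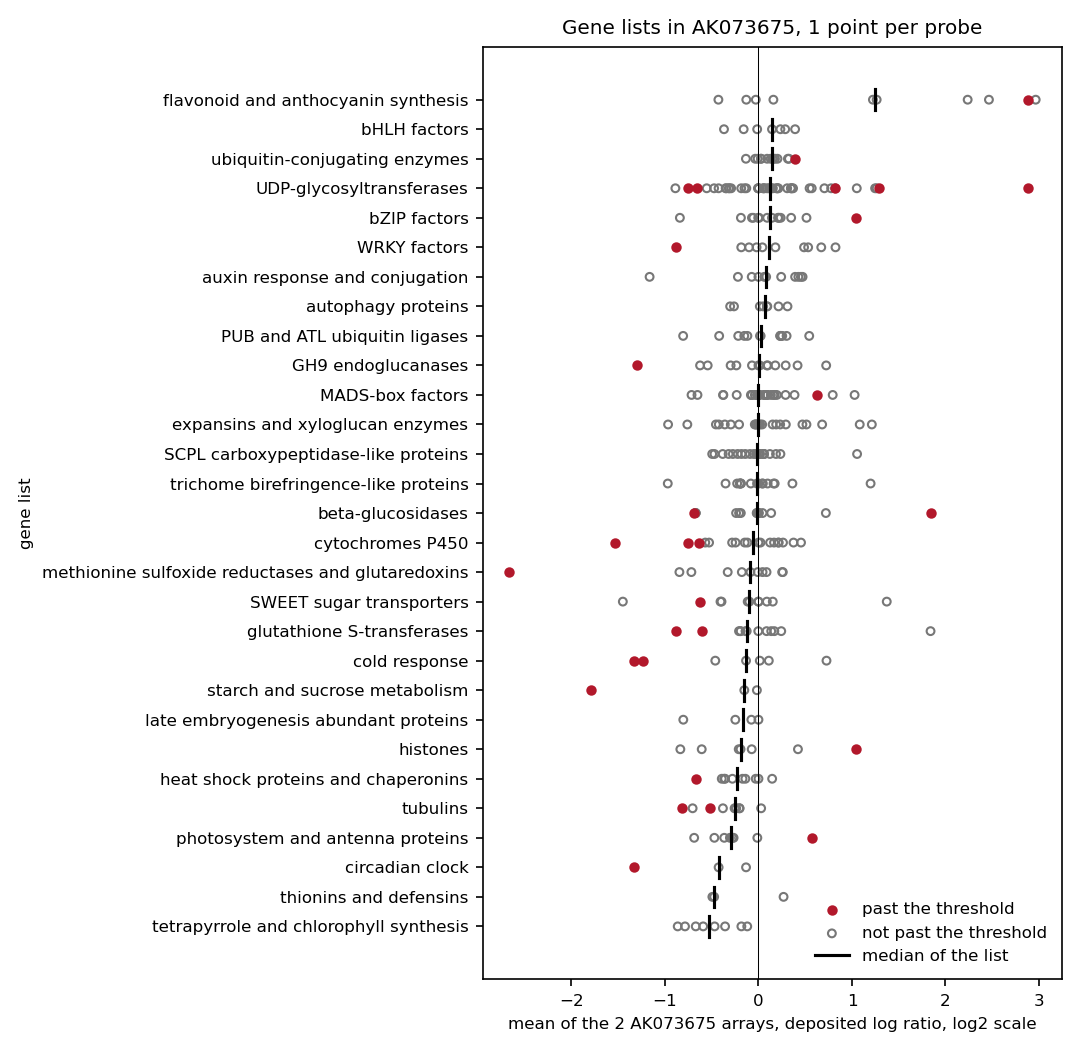
Mean of the 2 AK073675 arrays, deposited log ratio on the log2 scale, for each probe of the gene lists with at least 3 probes, sorted by the list median (black bar). Red points passed the threshold. The flavonoid and anthocyanin list has its median at 1.24 with 1 red point, and the tetrapyrrole list its median at -0.53 with none.

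For genes known by a locus code alone the annotation used here gives no product. On the positive side, they hold 18 of the 20 highest probes past the threshold among those listed with 1 gene. AT4G08570 read 2.97 and 3.13 on the 2 AK073675 arrays (mean 3.05 ± 0.45, SE, n = 2 arrays, adjusted p = 0.0145), an 8.30-fold ratio. AT2G18370 read 3.27 and 2.29, AT5G09480 3.14 and 1.89, and AT1G61930 2.29 and 2.41. These 4 genes were positive on all 10 arrays of the other lines, whose means ran from 1.0 for AT5G09480 to 2.15 for AT4G08570.

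Other locus-code genes of the positive side stood nearer to 0 in the other lines. AT3G62040 read 2.1 and 2.29 in AK073675 (adjusted p = 0.0433), against a range of -1.43 to 1.85 on the 10 other arrays, with a median of 0.10. The difference from the other lines, 1.93 ± 0.53 (SE), did not pass (adjusted p = 0.25). AT1G14890 read 1.81 and 1.23 in AK073675 and had a median of 0.25 on the other arrays, which reached 1.24. AT1G60590 read 2.0 and 1.72, and the other arrays ran from -0.80 to 2.0. By contrast, AT2G29370 (mean 2.05), AT1G70000 (1.66) and AT1G43910 (1.55) had means in the other lines of 2.03, 1.65 and 1.69, nearly the same as in AK073675. The least even of the 20 was AT5G42760, with 0.86 and 2.48. The remaining members of the 20 (AT3G05190, AT4G36430, AT2G23540, AT4G03610, AT1G62190, AT1G74460 and AT2G21100) had means between 1.49 and 2.04.

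On the negative side, 16 of the 20 lowest probes past the threshold with 1 gene have a locus code alone. AT3G28510 had the lowest mean, -3.18 ± 0.74 (SE, n = 2 arrays, adjusted p = 0.0482), from values of -2.34 and -4.02. Its values in the other lines lay between -3.65 and 1.08. AT5G51950 read -3.39 and -2.06 and AT5G37940 read -3.02 and -1.70, while the means of the other 5 lines were 0.18 and 0.25. On the other arrays these 2 genes ran from -2.18 to 3.07 and from -1.72 to 2.73, and neither difference from the other lines passed (adjusted p = 0.167 and 0.157). AT1G47980 read -2.87 and -1.66 in AK073675, against a mean of -0.51 in the other lines, and AT4G22490 read -3.21 and -1.08, against -0.57.

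AT1G07050 and AT4G32340 are the other genes, beside AMY1, whose calls outlasted the removal of any 1 array, among the named genes and those with a symbol. AT4G32340 read -1.62 and -1.64 in AK073675 (mean -1.63 ± 0.09, SE, n = 2 arrays, adjusted p = 0.000614) and between -2.11 and -1.25 on the 10 other arrays. AT1G07050 read -1.95 and -2.17 (mean -2.06 ± 0.16, adjusted p = 0.0032), and its mean over the other lines was -2.88, farther from 0. AT1G55220 (-2.50 and -2.68), AT1G56680 (-2.87 and -1.71) and AT3G15450 (-2.1 and -2.0) were negative on all 10 other arrays as well. The rest of the 20 (AT5G62280, AT5G51890, AT5G52760, AT5G05890, AT1G24620 and AT5G03980) had means between -1.98 and -1.62.

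**Figure D4:**
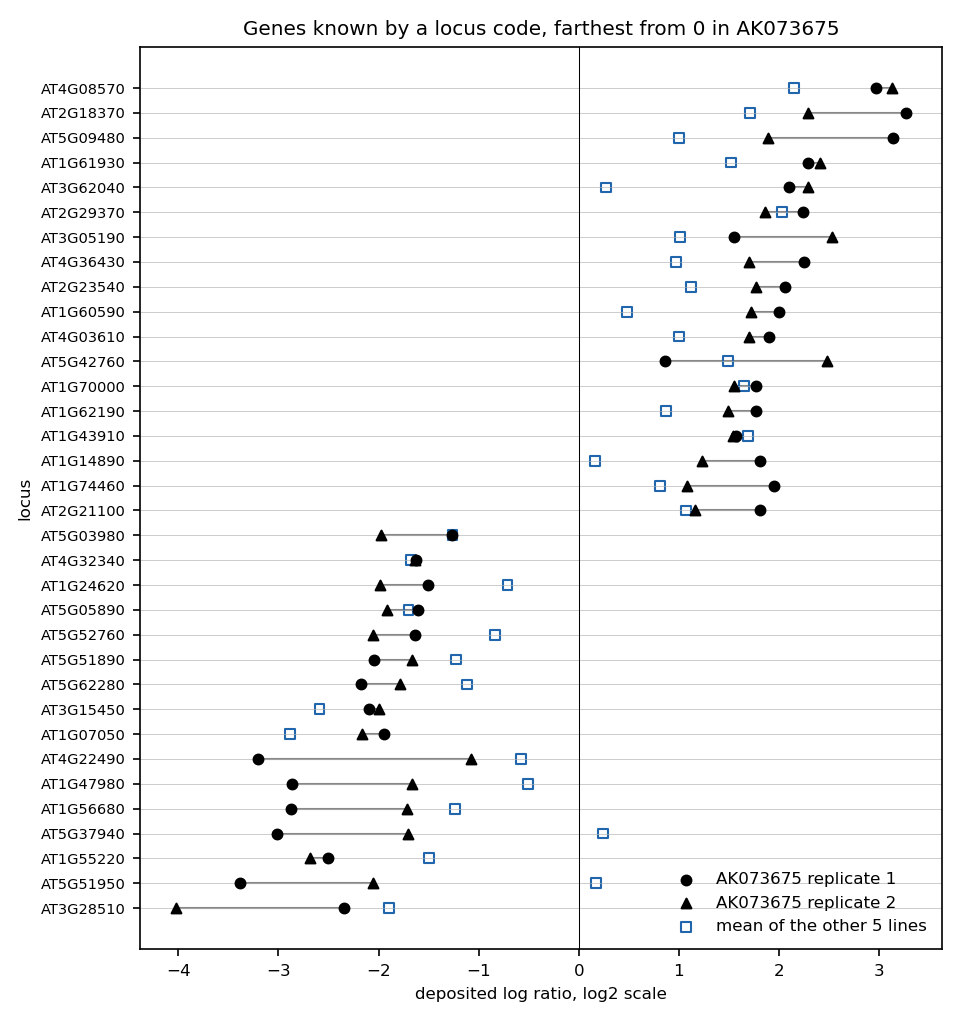
Deposited log ratio, log2 scale, of the locus-code genes among the 20 highest and 20 lowest probes with 1 gene in AK073675. Filled points joined by a line are its 2 arrays, and open squares the means of the other 5 lines. AT3G62040 (2.1 and 2.29, against 0.27) and AT5G51950 (-3.39 and -2.06, against 0.18) lie far from their squares, while AT1G43910 and AT4G32340 lie on them.

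The arrays of AK073675 differed by at least 2 for 75 probes. Replicate 1 was the lower array for 55 of them and the higher for 20, and 3 of the 75 passed the threshold. The listed gene with the largest gap was ATA27, a beta-glucosidase-like gene of the tapetum, with -4.88 on replicate 1 and 0.47 on replicate 2. SHT, the tapetum enzyme that joins hydroxycinnamic acids to spermidine for the pollen coat, read -3.39 and 0.59. AMS, the bHLH regulator of tapetum development, read -2.51 and 0.37, and the anther gene ATA20 read -2.56 and 0.19. SWEET8, a sugar transporter needed for the pollen wall, read -1.29 and 1.46, and SWEET10 read -3.10 and 0.19. For each of these 6 genes replicate 1 was negative and replicate 2 positive, and none passed the threshold. ATA27 and SHT were picked for the size of their gap. AMS, ATA20, SWEET8 and SWEET10 are named although the naming rule did not pick them, after their values were seen. The sides shared by the 6 genes thus follow from the choice and are no test of tapetum genes.

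The rule that picked ATA27 and SHT, the widest gaps with replicate 1 lower, also picked genes with a locus code, so their gap was set by that choice. AT2G03740 read -4.88 and 0.14, AT1G66850 read -4.15 and 0.26, and AT2G03850 read -3.55 and 0.43 on replicates 1 and 2. The largest gaps of all belonged to probes without a gene, with -5.78 and 0.41 for probe 481 and -6.08 and -0.01 for probe 19712. Of the 7 pollen and anther markers chosen, 3 were measured: AMS, VGD1, a pectin methylesterase of pollen, at -1.51 and -0.27, and AT5G07230 at -0.10 and 0.07. The arrays of the other lines also varied widely in these genes, from -4.75 to 2.89 for ATA27 and from -3.72 to 1.24 for SHT. The leaf marker RCA, Rubisco activase, read -0.81 and -0.09. The root hair expansins EXPA18 and EXPA7 read 0.13 and 0.46, and 0.64 and -0.18. None of the 6 floral identity markers and none of the 5 seed storage markers was measured. The part of flower or anther content in the difference between the arrays was not tested, and the deposited ratios give no level of any marker.

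The opposite gap was rarer. AT5G09280 read -0.30 on replicate 1 and -5.12 on replicate 2, and AT3G11150 read -0.30 and -4.22. AT3G58550 read 2.69 and -0.13, and AT5G01250 read 2.60 and 0.07. MTPA1, of the metal tolerance proteins, was exactly 0 on replicate 1 and -2.42 on replicate 2, and 7 of the 10 other arrays also held exactly 0 for it. An exact 0 was deposited for 8.13% of probes on replicate 1 and 7.76% on replicate 2. None of the 2014 probes with a 0 on either array passed the threshold. None could in this fit, since the gap to the other array enters the spread.

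**Figure D5:**
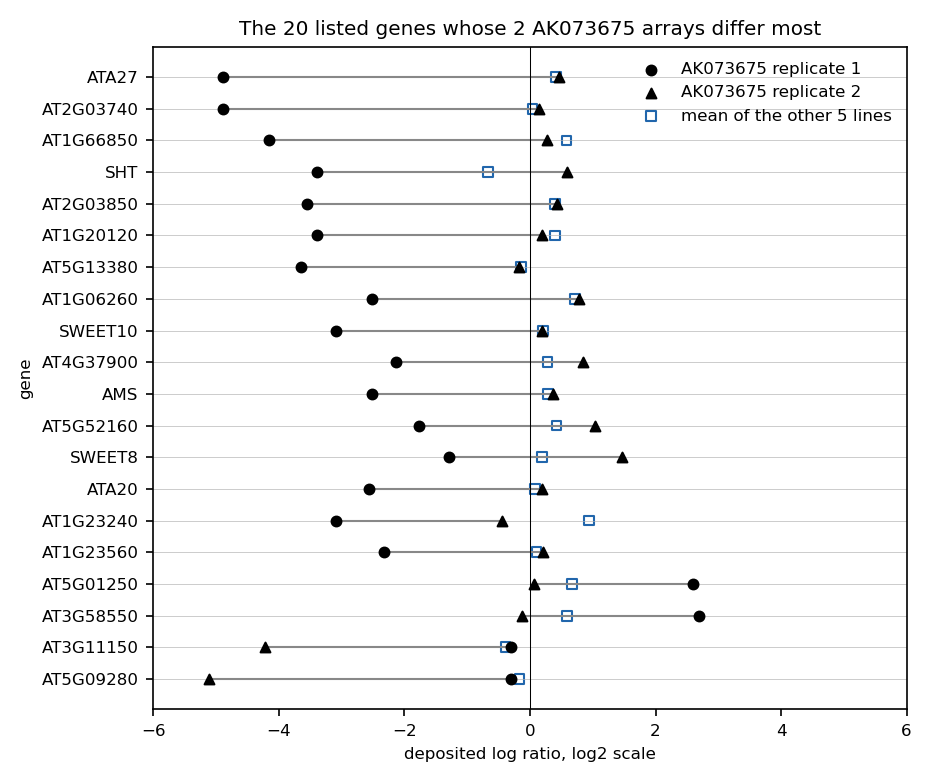
Deposited log ratio, log2 scale, of the 20 listed genes whose 2 AK073675 arrays differ most, with replicate 1 as circles, replicate 2 as triangles and the mean of the other 5 lines as squares. For ATA27, SHT, AMS, SWEET8, SWEET10 and ATA20 the circle lies on the negative side and the triangle on the positive side.

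The comparison of AK073675 with the mean of the other 5 lines asks what sets the line apart, since the Col-0 channel and the dye cancel in it as far as the same Col-0 RNA was used. No probe of 21494 passed it (0.00%) in limma. At an unadjusted p below 0.05 there were 2409 probes, 1136 above the other lines and 1273 below. The count past the threshold depends on single arrays: leaving out AK073112 replicate 1 gave 765 and leaving out its replicate 2 gave 41, while dropping the first AK073675 array gave 5 and dropping the second gave 10. It stayed 0 when any 1 of the other 8 arrays was left out. Both AK073675 arrays lay above all 10 others for 362 probes (1.68% of all probes) and below all 10 for 310 (1.44%). Of these, 82 and 73 passed the threshold against Col-0. The same counts were not made for other pairs of arrays, so these shares do not set the line apart.

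The genes nearest to the threshold in that comparison were AMY1 and AT5G39520 below the mean of the other lines and AT3G15720 and AT5G47510 above it. AMY1 had a mean of -1.80 in AK073675 and 0.18 in the other lines, a difference of -1.98 ± 0.19 (SE, adjusted p = 0.0649). AT5G39520 read -0.47 and -1.10 in AK073675 and averaged 0.76 in the other lines (difference -1.54 ± 0.15, adjusted p = 0.0649). The other arrays ran from -0.66 to 2.30 for it, and AK065297, at -0.63 and -0.66, lay below AK073675 replicate 1. AT3G15720 read 0.63 and 0.91, against an average of -0.43 (difference 1.20 ± 0.13, adjusted p = 0.0687), and both arrays lay above the highest of the other 10, at 0.13. AT5G47510 read 0.94 and 1.17, against an average of -0.04 (difference 1.09 ± 0.12, adjusted p = 0.0723), and the highest other array stood at 0.27. Each of these 4 genes was past the threshold against Col-0.

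Behind them, AT2G39110 (difference 0.90), AT2G30600 (0.58) and AT3G17530 (0.91) lay above the mean of the other lines. AT3G13670 (-0.72), AT3G10320 (-1.86) and AT2G42350 (-1.34) lay below it. The adjusted p of these genes in limma ran between 0.114 and 0.135. AT2G39110 had a mean of 0.92 in AK073675, 0.94 in AK069096 and -2.05 in AK073112, so it did not lie above every line. For AT3G17530, which read 1.04 and 0.69 in AK073675, 9 of the 10 other arrays held exactly 0. The AT2G30600 probe stood at 0.11 in AK073675 and did not pass against Col-0. Its line means were -1.08 in AK069096, -1.10 in AK073112 and 0.05 in AK065297. AT3G10320 was unevenly read, at -0.34 and -1.54, and AK065297 read -0.57 and -0.51 for it. VGDH1 differed from the other lines by -1.48 and BGLU46 by 1.44, with adjusted p of 0.153 and 0.176.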

How the data were processed

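The authors deposited 1 log ratio per probe and array. Per the submitters' processing notes, Agilent Feature Extraction 7.1.1 was used. These deposited values were taken as log10 ratios, a base the table does not state, and multiplied to the log2 scale. No background method, dye normalization or genome build is given in the sources used here. Arrays were assigned to lines by title. With limma 3.58.1 in R 4.3.3, a mean per line was fitted to the 21494 probes with values on all 12 arrays (6 probes lacked one), with 6 residual and 1.88 prior degrees of freedom. Each test was two-sided, p-values were adjusted by Benjamini-Hochberg over the 21494 probes, and the threshold was 0.05. The fit was tested on simulated data. No scan date or other batch was given.

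Of 21500 probes, 9335 list 1 gene, 9317 of which matched a TAIR10.1 gene ID and took its symbol. Named were the 20 probes per side that lay farthest from 0 among calls with 1 gene and both arrays on one side, the 10 highest and lowest with a symbol, the 5 per side nearest to passing against the other lines, the 5 per direction whose arrays differ most, and list members past the threshold. Other genes were named after their values were seen. The genes, the 30 lists (by locus or by symbol, since the gene table holds no descriptions) and the tests were chosen with earlier results of these data known. Alternatives were 2 normalizations, a replicate block, array weights, a robust spread, zeros as missing, averaging per locus, other sets of arrays, and log2 as the base. All 6 lines share Col-0, so no overlap between lines is given.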

Additional observations from a re-analysis of the deposited data

How the results depend on the processing

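Against the 1235 probes past the threshold, 311 of them at least 1 in size, quantile normalization gave 3724 and 734, scale normalization 3974 and 772, and leaving out both AK073112 arrays 4053 and 455. All 1235 stayed past under each of these 3. Exact zeros as missing gave 1463 and 369, array weights 1808 and 352, a robust spread 1091 and 297, and averaging per locus 1232 and 312. With only the 2 AK073675 arrays in the fit both counts were 0, with 1 residual degree of freedom among samples. Taking the deposited values as log2 left 3 probes at least 1 in size. Leaving out 1 array at a time, where the lone array is assumed to vary like the other lines, gave 20 to 4053 probes, 18 to 455 of them at least 1 in size, and 0 to 765 against the other 5 lines. That last count, 0 otherwise, was 16 with quantile and 3 with scale normalization, 4 with zeros as missing and 12 without both AK073112 arrays. The correlation of the 2 arrays, 0.586, was 0.620 without exact zeros and 0.602 after quantile normalization. The sign turned without AK073675 replicate 1, so that over the fits without 1 array ATA27 ran from -4.88 to 0.47, AT2G03740 from -4.88 to 0.14, AT1G66850 from -4.15 to 0.26, SHT from -3.39 to 0.59, AT2G03850 from -3.55 to 0.43 and AT3G58550 from -0.13 to 2.69. AT2G30600 turned to -0.0146 when its probes were averaged. The positive share of calls, 47.8%, was 30% among the 20 calls without AK073675 replicate 1 and otherwise 43.6% to 50.8%. The replicate block gave 932 and 262 probes, 850 of them among the 1235, and 0 against the other lines. Replicate numbers did not pair the arrays: over 15 pairs of lines the deviations correlated between -0.07 and 0.17, 2 of them above 0.1. The causes of these moves were not tested, beyond the arrays each fit contains.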

Other observations

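Neighbouring genes offer a view of the calls that the gene lists do not. Among genes with a probe, 2833 pairs follow each other directly in the TAIR10.1 annotation, and both members passed against Col-0 in 14 pairs, 11 of them on one side. WRKY53, at -0.88, stands next to AT4G23820, at -0.97. AT5G16990 and AT5G17000, which stand close to the alkenal reductase gene AER, read 0.75 and 0.75. AT3G17520 and AT3G17530 lay on opposite sides, at -1.34 and 0.87. Where the first gene of a pair passed, the next passed in 9.09% of 154 pairs, beside 5.77% of 9233 genes. The difference between these shares was not tested, and neither was cross-hybridisation between probes of neighbouring genes of like sequence.

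For 78 genes with more than 1 probe, the median gap between the means of their probes was 0.18, and 40 genes had all probes on one side. The threshold was passed by a probe of 3 of these genes, and in none by all of its probes. AT4G14090 had the widest gap, 1.25.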
